A study of Mus musculus with 57 samples.

Results

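The interferon response genes were examined in ribosome-bound messenger RNA from a pull-down aimed at mouse cortical astroglia, from just after birth to adulthood. The set holds 33 genes taken by symbol from a count table of 21118 genes. All 33 had a row in the table and all 33 passed the filter on low counts, which removed 0 genes.

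Interferons are secreted signals of antiviral defence. Their receptors act through JAK kinases on STAT proteins such as STAT2, which enters the nucleus with IRF9 and binds the interferon-stimulated response element in front of the induced genes. The induced proteins sense viral nucleic acid, block viral entry and translation, tag other proteins with the ubiquitin-like ISG15, and cut and load peptides for MHC class I. Astrocytes carry interferon receptors, and a low level of this program is known in the healthy brain.

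The RNA came from whole cortex of Aldh1l1-L10-GFP mice on a C57BL/6 background. In these animals a ribosomal protein tagged with green fluorescent protein is driven by Aldh1l1, which astrocytes express, and tagged polysomes were pulled down with an antibody to the tag. Every animal carried this transgene and the labels name no treatment. The groups were defined by labelled sex and age, but the replicate sets described below were not spread evenly over them. The 53 libraries, 1 for each animal, were labelled female (4 of P1, 4 of P4, 8 of P7, 5 of P14, 3 of P35 and 4 adults) or male (4, 4, 4, 5, 3 and 5 at the same ages), where P stands for the postnatal day and the labels give no day for adults. A library is named here by its age, its labelled sex and the number in its label, as in P1 female 4. The number's first digit (1, 2, 3, 4 or 6) is called the replicate set. It is given as S for 4 P7 animals sequenced in a second run alone. The set was a term of the model beside the 12 groups of sex and age. Another 4 P7 animals (P7 female 10, P7 male 2, P7 male 6 and P7 female 6) had a repeat run. Per the labels no animal of another age did.

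Some libraries stood apart. Total counts ran from 14768178 to 48541139, with a median of 24033399. P1 female 4, P7 female 40 and P14 male 4 had 10 or more counts in only 10085, 13834 and 14530 genes, against 15531 or more in each of the others, and 19, 11 and 8 of the 33 members were at 0 in them. Sex-linked transcripts went against the labelled sex in 6 libraries (Y-linked CPM under 1 in labelled males or over 50 in labelled females). The letter in the description name did so in 5, which made 9 with either. Levels are given in CPM, the counts of a gene scaled to a common library size after TMM normalization. Astrocyte markers (12 genes) summed to between 3776 and 24150 CPM in adults (median 16470) and between 628 and 4927 CPM at P1 (median 1417). These messages were thus present at both ages, with a higher median in adults. Neuronal markers (12 genes) summed to between 2468 and 11070 CPM in adults (median 3573) and between 1322 and 7487 CPM at P1 (median 4084). At P1 the neuronal median was therefore above the astrocyte median. The labels name no library of unselected RNA, so enrichment by the pull-down was not tested. In bulk RNA of this kind, fewer cells of a type and less RNA per cell cannot be told apart.

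The members lay on very different levels. Per kilobase of exon, Ifitm2 averaged 133 CPM, Ifitm3 64.3 CPM and Ifi27 20.4 CPM over the 53 libraries. Ifitm2 and Ifitm3 encode membrane proteins that hinder the entry of viruses, and Ifi27 encodes a small interferon-induced protein. All other members averaged 5.00 CPM per kilobase (Tapbp) or less. The lowest were Sp100, a protein of nuclear bodies, at 0.0550 CPM per kilobase, Zbp1, a sensor of nucleic acids in the Z form, at 0.0577, and Parp14, an ADP-ribosyltransferase, at 0.0649. By library, Ifitm2 ran from 14.3 CPM in a P7 library to 268 CPM in a P14 library, and Ifitm3 from 5.43 to 169 CPM at the same 2 ages, so their ages overlapped throughout. The highest Zbp1 library had 0.293 CPM at P1, 0.209 CPM at P4, 0.506 CPM at P7, 4.90 CPM at P14, 0.464 CPM at P35 and 0.734 CPM among adults, and the 4.90 CPM (44 counts) belonged to P14 male 4. Zbp1 was at 0 counts in 25 of the 53 libraries, Sp100 in 14, Rsad2 in 13 and Oas1a in 10. The log2 differences of these 4, adult minus P1, carry standard errors from 0.90 to 1.41.

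Promoter stretches are shown for 6 members to set the shared element beside their levels. RefSeq promoter windows (GRCm38.p6, 250 bases before to 50 after a gene's start) were found for 27 of the 33 members, and not for Usp18, Dhx58, Ifi27, Rtp4, Parp14 and Zbp1. The core of the interferon-stimulated response element was searched as GAAA, then any 2 bases, then GAAA again, on both strands, where overlapping matches count separately. It was present for 13 of these 27 members (48.1%), against 1079 of all 27025 genes with such a window (3.99%). The 13 were Stat2, Isg15, Oas1a, Bst2, Rsad2, Ifih1, Ddx58, Ifitm2, Ifitm3, Trim30a, Eif2ak2, Ifit1 and Ifit3. In Ifih1, Ddx58, Ifitm3 and Eif2ak2 the matches lay only after the gene's start. Stat2, Rsad2 and Ifitm2 had a match before the start as well but are not among the 6 shown. The core of the gamma-activated site, TTCNNNGAA, was present for 8 of the 27 (29.6%), against 9.55% of all genes. In the lines below capitals mark the matches of the response element alone, not those of the gamma-activated site, and they read as TTTC, 2 bases and TTTC where they lie on the other strand. Ifit3 (chr19:34583348-34583441) and Ifit1 (chr19:34640760-34640838) lie on the + strand. Trim30a (chr7:104465195-104465254), Isg15 (chr4:156200850-156200921), Oas1a (chr5:120907526-120907570) and Bst2 (chr8:71537562-71537627) lie on the - strand, and each line runs 5′ to 3′ on its gene's strand.
Ifit3: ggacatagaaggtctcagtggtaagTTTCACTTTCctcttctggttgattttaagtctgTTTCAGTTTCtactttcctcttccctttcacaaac
Ifit1: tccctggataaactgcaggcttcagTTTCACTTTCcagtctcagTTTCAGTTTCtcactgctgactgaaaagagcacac
Trim30a: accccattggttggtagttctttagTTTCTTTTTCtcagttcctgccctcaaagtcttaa
Isg15: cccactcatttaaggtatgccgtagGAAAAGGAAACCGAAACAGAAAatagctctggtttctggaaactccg
Oas1a: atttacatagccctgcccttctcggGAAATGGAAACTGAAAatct
Bst2: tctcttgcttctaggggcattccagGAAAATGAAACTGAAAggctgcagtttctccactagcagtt
Ifit3 and Ifit1 each hold a pair of separate matches, Isg15 holds 3 that overlap in 1 run, and Oas1a and Bst2 each hold 2 that overlap. A match is a description of these letters and not a bound site.

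Age was tested first as a whole, as any difference among the 6 ages with the sexes averaged (edgeR quasi-likelihood F test, adjusted over all genes). Of the 33 members, 13 passed an adjusted p of 0.05 (39.4%), where 43.5% of all genes passed, a share near the background. Without the replicate set in the model, 6 members and 5248 of all genes passed. When the 3 libraries with few detected genes were also left out, 11 members and 6269 of all genes passed. The 13 were Ifi27, Ifit3, Xaf1, Ifih1, Ifi35, Ifitm2, Dhx58, Psmb8, Ifit1, Trim30a, Ifit2, Psmb9 and Bst2. They stand in the order of their adjusted p (1.69e-09 for Ifi27 to 0.047 for Bst2). Bst2 and Psmb9 (adjusted p = 0.0465) each lost this call in most of the 53 fits that left out 1 library. Ifit2 (adjusted p = 0.0391) lost it in some. Between adults and P1, 12 members rose and 1 fell (39.4%), against background shares of 41.3% of all genes in either direction, 21.8% higher and 19.5% lower. The members' median log2 difference, adult minus P1, was 1.05, with 30 members above 0, against a median of 0.06 over all genes (interquartile range -0.65 to 0.90). Irf1, Ifih1, Dhx58, Ifi27, Ifi35, Trim30a, Rtp4, Psmb8, Psmb9, Xaf1, Ifit1 and Ifit3 rose, which is 36.4% of the members, and Ifit2 fell, which is 3.03%.

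**Figure D1:**
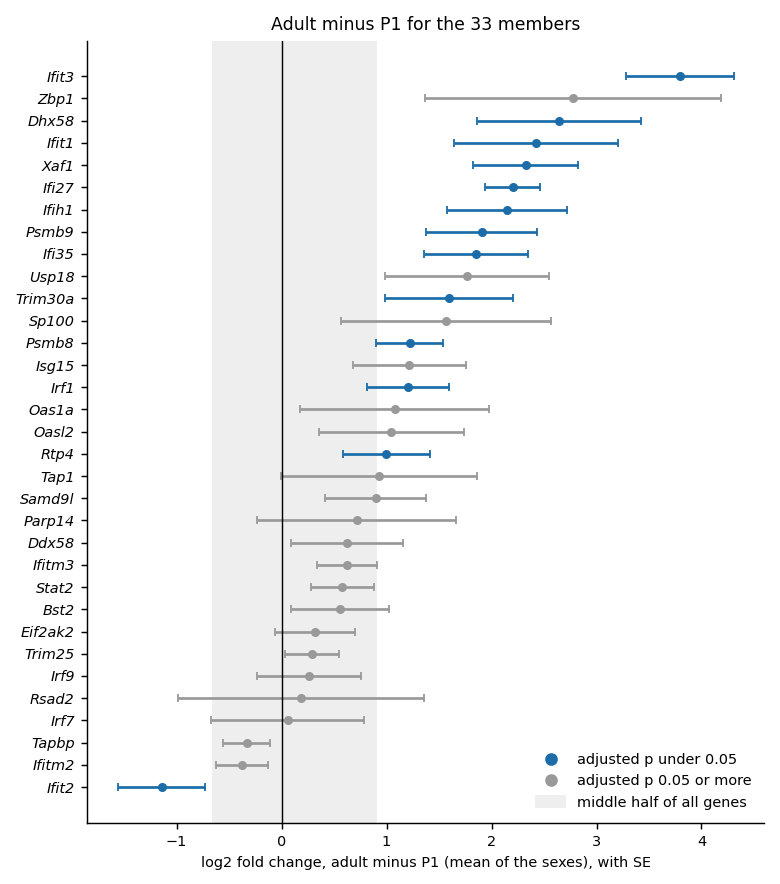
Log2 fold change of each of the 33 members, adult minus P1 with the labelled sexes averaged (x axis), with standard errors as bars and blue points for an adjusted p under 0.05. The shaded band is the interquartile range of all genes (-0.65 to 0.90). Ifit3 lies farthest to the right at 3.80 and Ifit2 farthest to the left at -1.14.

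The IFIT genes, which encode proteins that bind foreign RNA, sit side by side on chromosome 19. Between P1 and adulthood Ifit3 and Ifit1 rose, while Ifit2 fell. Ifit3 ran, as lowest, median and highest library, at 0, 1.09 and 2.83 CPM at P1 (n = 8), 0.723, 2.14 and 3.04 CPM at P4 (n = 8), 0, 2.21 and 9.21 CPM at P7 (n = 12), 0.963, 5.45 and 12.4 CPM at P14 (n = 10), 7.71, 10.1 and 22.9 CPM at P35 (n = 6), and 11.1, 20.0 and 33.0 CPM in adults (n = 9). Its median was higher at each later age, and all 9 adult libraries lay above all 8 P1 libraries. Adults averaged 19.1 ± 6.82 CPM and P1 1.39 ± 0.996 CPM (SD), a log2 difference of 3.80 ± 0.511 (SE, edgeR adjusted p = 7.92e-08). Ifit1 averaged 2.73 ± 1.70 CPM in adults (0.0333 to 5.19) and 0.632 ± 0.737 CPM at P1 (0 to 1.98), and its log2 difference was 2.42 ± 0.778 (edgeR adjusted p = 0.0109). The Ifit1 libraries overlapped, with adult male 60 at 1 count and 2 of the P1 libraries at 0.

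Ifit2 was the single member that fell. It stood at 3.81, 11.6 and 16.7 CPM in adults and at 16.4, 22.3 and 29.3 CPM at P1 (lowest, median, highest), with the highest adult library just above the lowest P1 library. The means were 10.8 ± 4.13 CPM in adults and 21.9 ± 4.55 CPM at P1 (SD), a log2 difference of -1.14 ± 0.413 (SE, edgeR adjusted p = 0.0236). Its mean was 16.3 CPM at P4, 15.0 at P7, 9.52 at P14 and 10.7 at P35, so the lower level was reached by P14. Without P1 female 4 the difference was -0.95 (adjusted p = 0.059), and without the replicate set in the model it was -1.01 (adjusted p = 0.0895). At P1 the mean of Ifit2 per kilobase of exon was 5.58 CPM and that of Ifit3 0.796, whereas in adults Ifit2 stood at 2.76 and Ifit3 at 10.9 CPM per kilobase. Ifit3 has a near-identical neighbour, Ifit3b, and how reads were divided between them is not given in the sources used here. Ifit3b itself averaged 9.13 ± 3.78 CPM in adults and 0.221 ± 0.259 CPM at P1 (log2 difference 5.50, adjusted p = 2.51e-07).

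**Figure D2:**
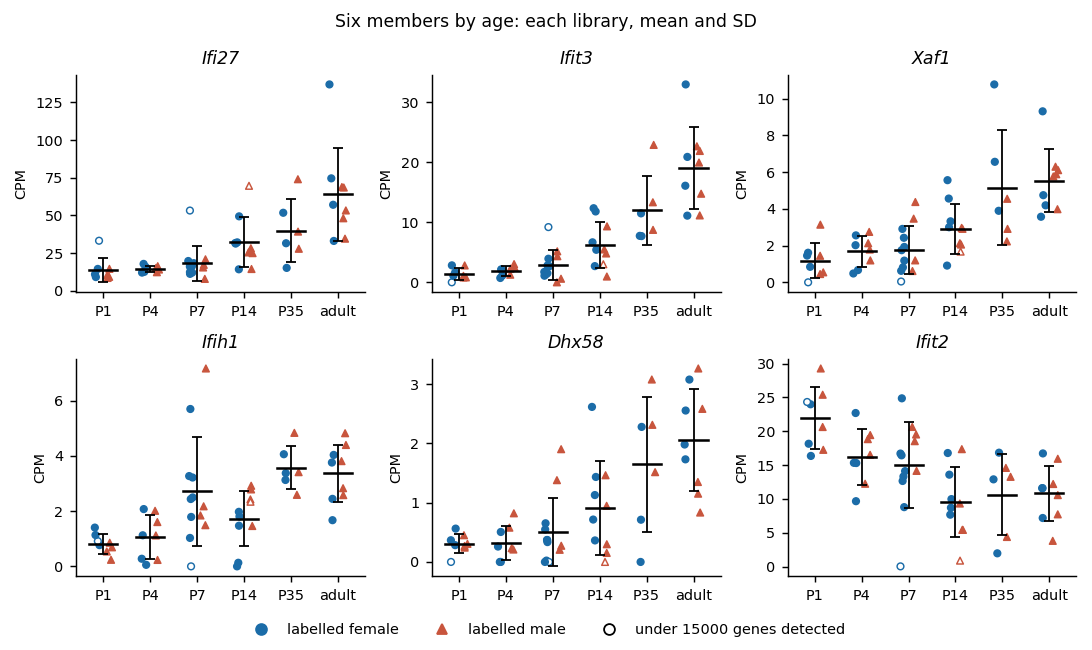
CPM of 6 members in each of the 53 libraries by age (x axis), with circles for libraries labelled female and triangles for those labelled male. Open symbols are the 3 libraries with few detected genes, horizontal lines are means and bars are SD. Ifi27 and Ifit3 have higher means at each later age, up to 63.9 and 19.1 CPM in adults, while the mean of Ifit2 is highest at P1, at 21.9 CPM.

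Among the sensors of viral RNA, Ifih1 (the protein MDA5) and Dhx58 (LGP2, a regulator of the same receptors) rose between P1 and adulthood. Ifih1 stood at 1.67, 3.76 and 4.82 CPM in adults and at 0.238, 0.812 and 1.41 CPM at P1, without overlap. Its log2 difference was 2.15 ± 0.569 (edgeR adjusted p = 0.00218). Means at the ages between were 1.06 ± 0.807 CPM at P4, 2.72 ± 1.98 at P7, 1.73 ± 1.01 at P14 and 3.57 ± 0.783 at P35, so its mean did not move one way from age to age. Dhx58 stood at 0.833, 1.98 and 3.26 CPM in adults and at 0, 0.294 and 0.562 CPM at P1, again without overlap, with a log2 difference of 2.64 ± 0.782 (edgeR adjusted p = 0.00579). Libraries that did not overlap with adults higher were seen for 4 of the 33 members (Ifih1, Dhx58, Xaf1 and Ifit3; 12.1%) and for 3.58% of all genes, and with adults lower for 0 members and 2.69% of all genes. Ddx58 (RIG-I) and Trim25, the ubiquitin ligase that acts on it, had log2 differences of 0.63 ± 0.535 and 0.29 ± 0.26 and did not pass (adjusted p = 0.367 and 0.388). Dhx58 shares 141 exon bases with the antisense gene Dhx58os, and the strand setting of the counting is not given in the sources used here.

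Ifi27, the third most abundant member, had the smallest p of all members in the test of age. Its libraries ran, as lowest, median and highest, at 8.58, 10.7 and 33.3 CPM at P1, 12.1, 14.7 and 17.9 CPM at P4, 7.94, 16.2 and 53.3 CPM at P7, 14.3, 29.8 and 69.7 CPM at P14, 15.2, 35.4 and 74.0 CPM at P35, and 33.1, 57.1 and 137 CPM in adults. The highest library at P1, at P7 and at P14 was in each case the one with few detected genes, and without P1 female 4 the P1 libraries ended at 14.6 CPM, clear of every adult. The log2 difference, adult minus P1, was 2.20 ± 0.262 (edgeR adjusted p = 5.39e-09), and it lay between 2.05 and 2.37 with any library of the compared ages left out. Xaf1, a protein that binds the apoptosis inhibitor XIAP, stood at 3.57, 5.77 and 9.32 CPM in adults and at 0, 1.15 and 3.14 CPM at P1, without overlap. Its log2 difference was 2.32 ± 0.498 (edgeR adjusted p = 0.000202), with means of 1.70 CPM at P4, 1.78 at P7, 2.91 at P14 and 5.16 at P35. Ifi35, an interferon-induced leucine zipper protein, stood at 1.28, 2.90 and 6.38 CPM in adults and at 0.0703, 0.818 and 1.76 CPM at P1, with a log2 difference of 1.85 ± 0.497 (edgeR adjusted p = 0.00248).

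Both catalytic subunits of the immunoproteasome in the set rose, while the peptide loading genes did not pass. Psmb8 stood at 1.87, 4.74 and 10.5 CPM in adults and at 0.984, 1.58 and 10.1 CPM at P1, where the highest value was again P1 female 4 and the next P1 library lay at 2.83 CPM. Its log2 difference was 1.22 ± 0.316 (edgeR adjusted p = 0.00175), and that of Psmb9 was 1.91 ± 0.531 (adjusted p = 0.00345), with 3.68 ± 2.44 CPM in adults and 0.964 ± 0.618 CPM at P1. Tap1, a subunit of the peptide transporter, had a log2 difference of 0.93 ± 0.932 (adjusted p = 0.448). Tapbp, the loading factor tapasin, stood at 17.4 ± 6.93 CPM in adults and 23.1 ± 12.8 CPM at P1 (log2 difference -0.33 ± 0.226, adjusted p = 0.246). Psmb9 and Tap1 share 212 exon bases on opposite strands, and Tapbp shares 904 bases, 24.9% of its exons, with the antisense gene Gm19412.

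Of the 4 transcription factors, Irf1 passed. Irf1, which drives many genes of the interferon gamma response, averaged 8.70 ± 2.40 CPM in adults and 3.91 ± 2.29 CPM at P1 and rose by 1.20 ± 0.392 on the log2 scale (edgeR adjusted p = 0.0122). Stat2, Irf9 and Irf7 did not pass, with log2 differences of 0.58 ± 0.297, 0.26 ± 0.496 and 0.06 ± 0.731 (adjusted p = 0.116, 0.709 and 0.963). Isg15 averaged 3.20 ± 1.99 CPM in adults and 1.32 ± 0.835 CPM at P1. Usp18, the enzyme that removes ISG15 from proteins, averaged 2.21 ± 1.12 CPM in adults and 0.714 ± 0.435 CPM at P1. The log2 differences of Isg15 (1.22 ± 0.539) and Usp18 (1.77 ± 0.779) missed the threshold (adjusted p = 0.0661 and 0.065), and both passed in DESeq2 (adjusted p = 0.0175 and 0.0226). DESeq2 also called Stat2 (adjusted p = 0.0497), Ifitm3 (0.041) and Zbp1 (1.36e-08), the last with 6 of 8 P1 libraries at 0 counts. Isg15 also passed without the 3 libraries with few detected genes (0.93, adjusted p = 0.0362).

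Trim30a, a mouse member of the tripartite motif family, rose by 1.60 ± 0.609 on the log2 scale (edgeR adjusted p = 0.032), with 1.66 ± 0.885 CPM in adults and 0.573 ± 0.433 CPM at P1. Rtp4, a chaperone of G protein coupled receptors, rose by 1.00 ± 0.414 (edgeR adjusted p = 0.0495), with 7.76 ± 3.69 CPM in adults and 3.34 ± 1.58 CPM at P1. Among the calls of adult minus P1 these 2 were the least firm. Of 17 fits that each left out 1 adult or P1 library, Rtp4 missed the threshold in 13 (adjusted p up to 0.124) and Trim30a in 6 (up to 0.0676). The membrane proteins Ifitm3 (log2 difference 0.62 ± 0.282), Bst2 (tetherin, 0.56 ± 0.464) and Ifitm2 (-0.38 ± 0.249) did not pass between adults and P1 (adjusted p = 0.0718, 0.354 and 0.227). Nor did Oas1a, Oasl2, Rsad2 (viperin), Parp14, Eif2ak2 (the kinase PKR), Zbp1, Sp100 and Samd9l, whose log2 differences ran from 0.18 (Rsad2) to 2.78 ± 1.41 (Zbp1, adjusted p = 0.111).

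The members that rose included genes with and without the response element letters in their promoter windows. Of the 13 with the letters, 4 rose (Ifih1, Trim30a, Ifit1 and Ifit3), with a median log2 difference of 0.63 over the 13. Of the 14 with a window and no match, 5 rose (Irf1, Ifi35, Psmb8, Psmb9 and Xaf1) and 1 fell (Ifit2), with a median of 0.99. The difference between these counts was not tested.

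No single step between neighbouring ages carried a call. No member passed in any of the 5 steps between neighbouring ages, where 0.44% of all genes passed for P4 minus P1, 1.67% for P7 minus P4, 3.30% for P14 minus P7, 1.15% for P35 minus P14 and 0% for adult minus P35. These background counts moved several fold with the model: for P14 minus P7, 4 genes passed without the replicate set and 1587 in DESeq2, against 697 here. At an unadjusted p under 0.05 there were 1, 3, 3, 2 and 1 members in these steps, below the background shares of 12.0, 13.4, 17.4 and 14.8% in the first 4 steps (at most 9.09% of the members) and near the 4.19% of the last. DESeq2 called Zbp1 for P4 minus P1 and 0 members in the other 4. Its log2 difference there was 7.12, although Zbp1 averaged 0.0619 CPM at P1 and 0.0466 CPM at P4. Zbp1 was at 0 counts in 6 of 8 P1 and 5 of 8 P4 libraries. The members with the smallest p were Trim25 (log2 difference 0.53, p = 0.0489) for P4 minus P1, Ifitm2 (-0.78, p = 0.00547) and Ifit3 (1.23, p = 0.0154) for P7 minus P4, Ifitm3 (0.71, p = 0.0171) and Stat2 (-0.73, p = 0.0181) for P14 minus P7, Trim30a (1.62, p = 0.011) and Ifih1 (1.30, p = 0.0317) for P35 minus P14, and Ifi27 (0.63, p = 0.0278) for adult minus P35, all from edgeR before adjustment. Ifitm2 had 14.3, 47.0 and 202 CPM at P7 and 54.5, 113 and 215 CPM at P4 (lowest, median, highest). It passed in this step without the libraries with few detected genes (-0.90, adjusted p = 0.033) and without P7 male 2 (-1.26, adjusted p = 0.0114). P7 male 2 is 1 of the 4 animals with a repeat run. The members' median log2 difference was above 0 in each step, from 0.19 to 0.25.

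No difference between the labelled sexes passed in any member. The 9 libraries against their labelled sex by transcripts or letter were kept in their labelled groups, which limits these tests. Without them 8 of all genes passed for female minus male, and 0 for the dependence of the age change on sex. Of the 33 members, 0 passed for female minus male over all ages and 0 for the dependence of the age change on sex (edgeR; 0 also in DESeq2, and 0 at an unadjusted p under 0.05), against 0.0284% and 0% of all genes, or 2.15% and 3.68% at an unadjusted p under 0.05. The smallest p belonged to Oas1a, an enzyme that makes the oligoadenylates that activate RNase L. It stood at 0, 0.184 and 1.56 CPM in 28 libraries labelled female and at 0, 0.407 and 1.16 CPM in 25 labelled male (lowest, median, highest), a log2 difference of -0.75 ± 0.526 (p = 0.162 before adjustment). Psmb8 followed with a log2 difference of 0.25 ± 0.187 (p = 0.179 before adjustment), at 0.984, 3.41 and 10.5 CPM in libraries labelled female and 0.973, 2.80 and 7.52 CPM in those labelled male. Within the labelled females alone 5 members passed for adult minus P1, where 23.4% of all genes did (Ifi27, Psmb9, Xaf1, Samd9l and Ifit3; 15.2%). Within the labelled males 6 passed, where 26.8% of all genes did (Ifih1, Ifi27, Ifi35, Psmb8, Xaf1 and Ifit3; 18.2%). Ifit3 had a log2 difference of 3.63 in the labelled females and 3.96 in the labelled males, Ifi27 and Xaf1 also passed in both, and no member's difference between the sexes passed.

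Libraries differed by replicate set as well as by age. Of the 33 members 14 passed the test of the set (42.4%), where 69.1% of all genes passed, a share below the background. Ifitm2 and Ifitm3 were lowest in sets 3, 6 and S. Ifitm3 stood at 30.8, 47.9 and 65.5 CPM in set 2 (n = 8), 9.86, 15.5 and 45.4 CPM in set 3 (n = 12), 40.7, 58.7 and 169 CPM in set 4 (n = 11), 12.7, 25.3 and 44.6 CPM in set 6 (n = 8) and 5.43, 12.7 and 23.0 CPM in set S (n = 4), against 44.3, 55.5 and 138 CPM in set 1 (n = 10). The log2 difference from set 1 was -1.85 in set 3, -1.36 in set 6 and -1.87 in set S (edgeR adjusted p over all sets 3.04e-09), and the Ifitm2 medians were 36.6, 55.7 and 32.7 CPM in those sets, against 101 CPM in set 1. For Ifitm2 the log2 difference was -1.56, -0.78 and -1.34 (adjusted p = 1.15e-09). Tapbp had medians of 13.6, 10.6 and 12.4 CPM there, against 24.9 CPM in set 1, with log2 differences of -1.07, -1.54 and -1.04 (adjusted p = 4.71e-06). Samd9l, a protein that restrains viral replication and cell growth, went the other way. It averaged 4.78 ± 2.42 CPM in set 3, 4.18 ± 2.44 in set 6 and 8.86 ± 2.88 in set S, against 1.30 ± 0.823 in set 1, with log2 differences of 1.81, 1.39 and 2.14 (adjusted p = 3.1e-05). Stat2 was 0.76 higher in set 3 than in set 1 (adjusted p over all sets 0.00102), and Ifi27 differed from set 1 by 0.65 in set 4 and by -0.83 in set S (adjusted p over all sets 0.000292). Summed neuronal markers ran from 4133 to 8943 CPM in set 3, 6293 to 11070 CPM in set 6 and 5492 to 9684 CPM in set S, against 1322 to 3296 CPM in set 1. Their part in these differences was not tested.

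**Figure D3:**
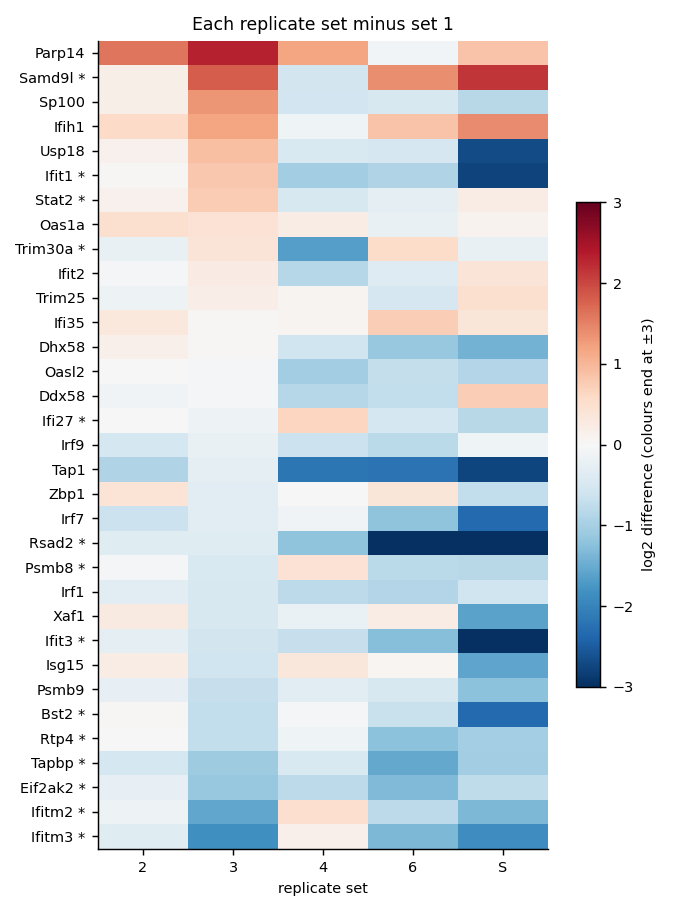
Log2 difference of each member (rows) between replicate sets 2, 3, 4, 6 and S and set 1, with sex and age in the model. Red is higher and blue lower than in set 1, colours end at 3 in either direction, and an asterisk marks an adjusted p under 0.05 for the set. Samd9l is red in sets 3, 6 and S (1.81, 1.39 and 2.14), where Ifitm3 is blue (-1.85, -1.36 and -1.87).

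**Figure D4:**
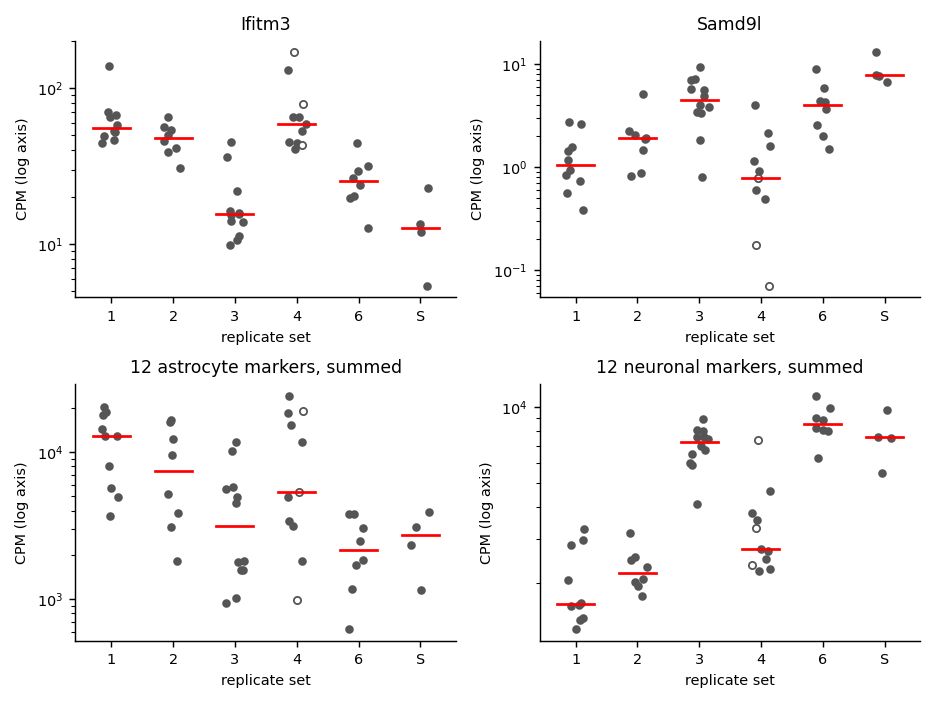
CPM on log axes of Ifitm3 and Samd9l (top) and of the summed astrocyte and neuronal markers (bottom) in each library by replicate set, with medians as red lines and the 3 libraries with few detected genes as open points. Set S holds P7 animals only. Ifitm3 has medians of 15.5 CPM in set 3, 25.3 in set 6 and 12.7 in set S, against 55.5 in set 1, and the neuronal sums are highest in the same sets.

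After sex, age and set were accounted for, the scatter between libraries was compared. The median SD of log2 CPM (prior count 2) between libraries was 1.05 for members and 0.861 for all genes, and within groups without the set it was 1.24 for members and 1.05 for all genes. Compared with genes of similar mean level, 15 of the 33 members had the larger SD within groups. Members moved together only weakly. Over 53 libraries the median Pearson's r between 2 members was 0.159 (Spearman's rho 0.126) over 528 pairs, against 0.0455 over all gene pairs, and 7.95% of member pairs were over 0.5, against 7.07% of all pairs. Without the 3 libraries with few detected genes the median was 0.0784, against 0.004 for all pairs, and 5 pairs were over 0.5 (0.947% of member pairs, 2.12% of all pairs). These 5 were Ifitm2 with Ifitm3 (0.826), Ifitm3 with Rtp4 (0.609), Isg15 with Xaf1 (0.586), Rtp4 with Ifit1 (0.565) and Ifitm3 with Psmb8 (0.501). Ifitm2 and Ifitm3 are near-identical in part and neighbours on chromosome 7, so their reads may be shared. All pairs share the same libraries and their depth.

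**Figure D5:**
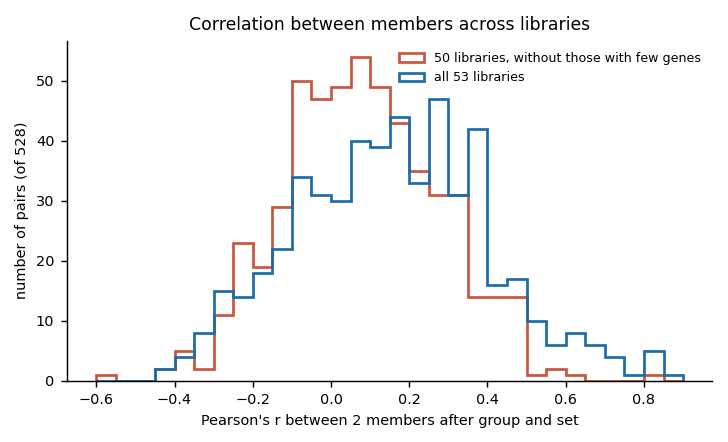
Number of pairs of members (y axis) by Pearson's r of their log2 CPM after sex, age and replicate set were removed (x axis), over all 53 libraries in blue and over 50 without the libraries with few detected genes in red. With the 3 libraries left out, the pairs over 0.5 number 5 of 528.

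The rest of the pathway was read from lists of its other genes, again as adult minus P1, where 21.8% of all genes were called higher and 19.5% lower. Among the genes of receptors and signalling, the kinase Jak1 rose by 0.82 ± 0.179 on the log2 scale, with 174 ± 79.8 CPM in adults and 115 ± 83.4 CPM at P1 (edgeR adjusted p = 0.000261). The kinase Jak2 fell by 1.26 (32.0 ± 12.0 CPM in adults and 77.5 ± 34.6 CPM at P1, adjusted p = 0.000442). Ifngr2, a chain of the interferon gamma receptor, fell by 1.02 (42.2 ± 15.6 CPM in adults and 77.8 ± 20.3 CPM at P1, adjusted p = 3.08e-05). The receptor chains Ifnar1 and Ifnar2, for type I interferons, had log2 differences of -0.17 ± 0.347 and 0.28 ± 0.371 and did not pass. Of 13 genes of nucleic acid sensing, 4 rose and 0 fell, led by Tlr3, an endosomal receptor of double-stranded RNA, with 19.3 ± 12.3 CPM in adults and 1.02 ± 1.43 CPM at P1 (log2 difference 4.68 ± 0.681, adjusted p = 3.82e-07). Its adaptor Ticam1 rose by 1.96 ± 0.407 (adjusted p = 0.000136).

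Of 11 negative regulators, 1 rose and 3 fell. Irf2, which competes with IRF1 for its sites, rose by 1.18 ± 0.244, while Ptpn1, a phosphatase of JAK kinases, and Socs3, an inhibitor of cytokine receptors, fell, with log2 differences of -0.55 and -1.41 (adjusted p = 0.000132, 3.72e-05 and 0.0098 in this order). Of 50 other interferon-induced genes, 11 rose, a share near the 21.8% of all genes, and 2 fell, below the 19.5% of all genes. Their median log2 difference was 0.69. Irgm1, a GTPase, averaged 26.7 ± 9.47 CPM in adults and 8.23 ± 6.93 CPM at P1 (log2 difference 1.77 ± 0.329, adjusted p = 2.91e-05), while Parp11 fell by 1.22 (adjusted p = 5.18e-06). Of 13 other genes of MHC class I presentation, 6 rose and 3 fell. B2m, the light chain of MHC class I, averaged 142 ± 51.1 CPM in adults and 44.0 ± 22.5 CPM at P1 (log2 difference 1.80 ± 0.209, adjusted p = 3.27e-09), and the third inducible proteasome subunit Psmb10 rose by 1.38 ± 0.194 (adjusted p = 2.07e-07). Psme1 and Psme2, which encode the proteasome activator, fell, with log2 differences of -0.78 and -0.46 (adjusted p = 2.72e-05 and 0.016).

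Markers of cell types were read over the same interval, where 21.8% of all genes were called higher and 19.5% lower. Of 16 genes of microglia, which also make interferon-induced proteins, 4 rose (P2ry12, Tmem119, C1qa and Trem2) and 0 fell, and their summed level was 41.3 to 140 CPM in adults (median 73.4) and 25.7 to 148 CPM at P1 (median 40.7), where the highest library was P1 female 4 and the next lay at 71.4 CPM. Of 12 endothelial genes 3 rose and 1 fell, at 25.1 to 177 CPM in adults and 25.5 to 80.4 CPM at P1, where the highest adult library was adult male 3 and the next adult lay at 65.0 CPM. Of 10 genes of mural cells and fibroblasts 1 rose and 2 fell, and of 5 red blood cell genes 0 passed. All 8 oligodendrocyte genes rose, at 772 to 2376 CPM in adults and 108 to 288 CPM at P1. Of 12 neuronal genes 8 rose and 3 fell, and of 12 astrocyte genes 11 rose. No defining marker was at 0 in both groups, and the part of these cells in the members' differences was not tested.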

How the data were processed

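Polysome-bound RNA of 53 mouse cortices was sequenced. The authors deposited raw gene counts. Per the submitters' processing notes the authors used CASAVA, HISAT2, SAMtools and featureCounts on GRCm38.p5, with versions, annotation and strand setting not given in the sources used here. Every column of the table belongs to 1 animal, and 0 columns were not used. The libraries come from separate animals per the labels. The 4 animals with a repeat run (P7 female 10, P7 male 2, P7 male 6 and P7 female 6) have 1 column each. Their totals ran from 42222297 to 48541139 counts, the highest of the 53 libraries. The labels show the second run at P7 alone, and its part in the levels of these 4 animals was not tested.

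All 21118 genes entered one edgeR 4.0.16 fit under R 4.3.3 (quasi-likelihood F test after TMM scaling, on 12 groups of sex and age plus replicate set), with Benjamini-Hochberg adjustment over all genes and a threshold of 0.05. Gene models came from GENCODE on GRCm38 and promoters from RefSeq (GRCm38.p6). The statistics were tested on simulated data. Alternatives were DESeq2 1.42.0, DESeq2 size factors, a stricter filter (1 CPM in 3 libraries), no replicate set, other prior counts and left-out libraries.

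The members, gene lists and tests were chosen with earlier results of these data known. All members may be named. Full values went to up to 6 members in each direction by the smallest adjusted p, or to the 2 with the smallest p where none passed, and to the 3 highest and 3 lowest in CPM. From each further list, up to 3 genes were named by adjusted p, with a few named for their role after their values were seen. A gene of the receptor and signalling list is not reported here, and no count is given for that list.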

Additional observations from a re-analysis of the deposited data

Results flagged for a closer look

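For 18 members and for the median of all members, the highest and lowest library of each age but P7 was compared with the others, and 14 of 95 such tests found a library far from the rest of its age, where chance gives about 1 in 20. The tests share libraries and the levels are skewed to high values, so these counts cannot be set against each other as a test. P1 female 4 lay apart in the members' median log2 CPM (-3.66, where the next library was at 0.29), in Ifi27 (33.3 CPM) and in Psmb8 (10.1 CPM). In it 19 members were at 0, and its red blood cell markers summed to 2051 CPM, the highest of the P1 libraries.

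Adult female 4 was the highest adult in Ifi27 (137 CPM, next 74.6), Psmb9 (9.59 CPM, next 4.21), Xaf1 (9.32 CPM, next 6.30), Ifitm2 (238 CPM, next 99.9) and Ifitm3 (130 CPM, next 70.0), and it was the lowest adult in Ifit3 (11.1 CPM) and Ifih1 (1.67 CPM). Its red blood cell markers summed to 957 CPM, the highest of the adults, and its microglial markers to 76.3 CPM. Without it Ifi27, Psmb9 and Xaf1 kept their calls in adult minus P1 (adjusted p = 7.85e-08, 0.0195 and 0.00114), Rtp4 lost its call and Ifitm2, lower in adults, gained one. The part of those cells in these levels was not tested.

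P14 male 4, with few detected genes, was the highest P14 library in Psmb9 (5.46 CPM) and Ifitm2 (268 CPM, next 102). Its red blood cell markers summed to 2102 CPM, the highest of the 53 libraries, and its microglial markers to 110 CPM, the highest at P14. P35 male 1 was the highest at its age in Ifit3 (22.9 CPM) and Tapbp (42.2 CPM), P35 female 6 in Trim30a (4.52 CPM) and P4 female 3 in Stat2 (25.7 CPM). P35 female 6 had the highest microglial sum of the 53 libraries, at 149 CPM. The part of these cells in the levels was not tested.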

How the results depend on the processing

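For adult minus P1, 13 members and 8718 of all genes passed. Without the replicate set these were 11 and 5926 (Trim30a and Ifit2 lost), with DESeq2 size factors 13 and 8738, and with the stricter filter 13 and 8357. Without the libraries with few detected genes they were 14 and 10054, and without those against their labelled sex 14 and 8521. Without the 4 animals of the second run alone they were 12 and 8722 (Rtp4 lost). Without both the block and the libraries with few detected genes they were 12 and 6691. In DESeq2 they were 18 and 9705, and with a library left out 10 to 15 and 8000 to 9064. Within labelled females 5 members and 4932 genes passed, and within labelled males 6 and 5664, with fewer samples. DESeq2 size factors shifted the median log2 difference of all genes to 0.11, against 0.06. The test of age called 6 members and 5248 genes without the replicate set as a block, against 13 members and 9190 genes with it. The cause of this difference was not tested. With a library left out the test of age called 10 to 13 members and 8621 to 10236 genes. For P4 minus P1, DESeq2 called 1 member. The counts over all genes for the steps between ages were far less stable than those for adult minus P1. For P4 minus P1, P7 minus P4, P14 minus P7 and P35 minus P14 they were 0, 32, 4 and 5 without the block, 670, 912, 1587 and 778 in DESeq2, and 93, 352, 697 and 242 as reported. In the last 3 of these steps they were 1093, 1295 and 1049 without the libraries with few detected genes and 13, 155 and 43 without those against their labelled sex. Without the block and the libraries with few detected genes the 4 steps had 1, 92, 8 and 18. P14 minus P7 had 361 without the 4 animals of the second run alone. DESeq2 called 114 genes for adult minus P35 (0 in edgeR), 103 for female minus male (6) and 2 for sex by age (0). With a library left out the first 4 steps ranged over 19 to 418, 31 to 635, 74 to 1430 and 46 to 556. For P7 minus P4, 1 member passed without the libraries with few detected genes, and 0 to 1 with a library left out. The replicate set called 14 members and 14585 of all genes as reported. It called 8 and 13285 without the libraries against their labelled sex, and 18 and 16120 without the libraries with few detected genes. Without the 4 animals of the second run alone it called 12 and 14345, and in DESeq2 19 and 15334. With a library left out it called 11 to 16 members and 14155 to 15708 genes. Without the libraries with few detected genes, 5 pairs of members were over an r of 0.5. The following members, none of them called, changed sign: Irf7 to -0.19 without the libraries with few detected genes, -0.16 also without the block, -0.19 within females and between -0.19 and 0.27 with a library left out; Irf9 to -0.035 and -0.069 in the first 2 of these; Rsad2 to -0.20, to -1.62 within females and between -0.20 and 1.13; Trim25 to -0.041, Parp14 to -0.013 and Samd9l to -0.12 within males; Samd9l to -0.0074 without the block and the libraries with few detected genes; and Tap1 to -0.023 without the libraries against their labelled sex and to -0.54 within females. The block rests on numbers in the labels: of 223 pairs of libraries of other groups with the same set, 201 had a correlation of their deviations over 0.1, not all, so the numbers are treated as shared numbers. The alternatives without the libraries against their labelled sex (except for the sex tests) were chosen after seeing the data. So were those without the block and the libraries with few detected genes. Those without the animals of the second run alone were too (except for age, the 2 steps with P7 and the replicate set). Low counts limit Zbp1, Oas1a, Sp100 and Rsad2.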

Other observations

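After sex, age and replicate set were removed, Ifit3 had the highest correlation of these members with the mean of the astrocyte markers (Pearson's r 0.725 over 53 libraries, 0.697 over the 50 without the libraries with few detected genes). The values of Eif2ak2 with the same markers were 0.556 and 0.428. Isg15, Ifi35 and Psmb9 had r of 0.582, 0.677 and 0.616 with the mean of the microglial markers over 53 libraries, and 0.051, 0.268 and 0.158 over 50, whereas Dhx58 had 0.484 over 53 and 0.538 over 50. Ifitm3 had r of -0.45 and -0.421 with the neuronal markers. All of these share the libraries and their depth, and they were chosen after their values were seen.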
